A study of Mus musculus with 20 samples.

Results

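The nuclear genes for the mitochondrial respiratory chain and the ATP synthase were followed in brain RNA of mice with severe spinal muscular atrophy (SMA), a neuromuscular disease caused by too little SMN protein. Members were the protein-coding genes whose symbol starts with Nduf and one of the letters a, b, c, s or v, with Uqcr, with Cox and a digit from 4 to 8, or with Atp5, together with Sdha to Sdhd. Members were also selected on a measured value, an average of 1 or more over all 20 libraries in FPKM (fragments per kilobase of transcript, scaled to the mapped fragments of a library), which was the limit for testing too, so that every member was tested. The rule took in 90 of the 45700 genes listed. They were 36 subunits of complex I, 7 complex I assembly factors (Ndufaf1 to Ndufaf7), 4 subunits of complex II, 8 of complex III, 15 of complex IV, the pair Ndufa4 and Ndufa4l2, 15 subunits of complex V, and 3 further genes that the names bring in (Cox7a2l, Atp5s and Atp5sl). Just inside the limit were Cox8b (1.01 FPKM), Cox6a2 (1.65 FPKM), Ndufa4l2 (1.71 FPKM) and Cox7b2 (1.71 FPKM), and just outside it was Cox4i2 (0.958 FPKM).

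Whole brains came from Taiwanese SMA mice (Smn-/-; SMN2tg/0) and from heterozygous littermates (Smn-/+; SMN2tg/0), congenic on FVB, so the human SMN2 transgene was present in the controls too. The early-symptomatic stage was postnatal day 5 (P5, 2 libraries per group) and the late-symptomatic stage postnatal day 7 (P7, 3 per group). At each stage a library of total RNA, pooled from all fractions of a sucrose gradient, and a library of polysomal RNA, pooled from the fractions with polysomes, were made for each genotype.

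Electrons enter the respiratory chain from NADH at complex I and from succinate at complex II, and pass through ubiquinone to complex III and through cytochrome c to complex IV, where oxygen is reduced. Complexes I, III and IV pump protons across the inner mitochondrial membrane, and complex V, the ATP synthase, uses this gradient to make ATP. Most subunits are encoded in the nucleus, made on cytosolic ribosomes and imported, while a small core is encoded by mitochondrial DNA and made inside the organelle. Neurons draw most of their ATP from this pathway.

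Promoters of these genes are known targets of the transcription factors NRF1, GABPA and YY1, and some of them are shown as background. Whether these letters go with the members' changes was not tested. RefSeq windows (GRCm38.p6) of 300 bases, from 250 before to 50 after the gene start, were available for 73 of the 90 members, which had 78 windows, and both strands were searched. The NRF1 letters GCGCATGCG stood in 12.8% of the members' windows, in 3.46% of those of all tested protein-coding genes and in 1.75% of all windows. The YY1 letters AAGATGGC stood in 11.5%, 4.14% and 2.75%, and the ETS family letters CCGGAAG, to which GABPA binds, in 21.8%, 16% and 8.86%. The SP1 letters GGGCGG were in 42.3%, 62.3% and 35.7%. These are matches of letters, not sites of binding, and the NRF1 letters overlap their own reverse complement, so a full palindrome matches on both strands. The stretches printed were chosen after the members' values were seen and lie upstream of the gene start, on the strand of the gene, with the NRF1 match in capitals (the YY1 match for Atp5j) and other matches left in lower case. The NRF1 letters also stood in windows of Atp5l, Ndufa8, Ndufaf5, Uqcr11 and Uqcrc1, which are not printed. Of those, Uqcr11 is lower in P5 polysomal RNA of SMA mice, and Ndufaf5 and Uqcrc1 fall with age in control brain. Of the genes printed, Atp5k, Atp5g2 and Ndufa11 are among those lower in P5 polysomal RNA of SMA mice, and Ndufaf4 is lower in P5 total RNA. Cox6a1 rises with age in control brain, and Atp5j holds a YY1 match.
Atp5k (chr5:108434420-108434469, minus strand): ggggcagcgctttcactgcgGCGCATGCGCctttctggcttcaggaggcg
Atp5g2 (chr15:102671060-102671109, minus strand): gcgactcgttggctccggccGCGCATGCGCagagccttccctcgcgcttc
Ndufa11 (chr17:56717682-56717731, plus strand): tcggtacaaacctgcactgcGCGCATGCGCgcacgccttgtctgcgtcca
Ndufaf4 (chr4:24897950-24897999, plus strand): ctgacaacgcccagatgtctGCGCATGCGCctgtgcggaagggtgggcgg
Cox6a1 (chr5:115349091-115349140, minus strand): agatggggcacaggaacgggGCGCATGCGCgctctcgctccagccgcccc
Atp5j (chr16:84835037-84835084, minus strand): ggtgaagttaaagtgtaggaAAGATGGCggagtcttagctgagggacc

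Several features of the libraries bear on what follows. Smn1, the gene disrupted in these mice, read 9.71 and 8.92 FPKM in P5 control total RNA against 9.55 and 10.1 FPKM in SMA, and 13.6, 14.1 and 16.7 FPKM against 11.9, 12.7 and 17.5 FPKM at P7. The genotypes overlapped at both stages, and since the value covers the whole gene, it checks no genotype label. Reads of the human SMN2 transgene may also be counted in it, which was not tested. Total RNA of SMA P5 replicate 1 stood apart: its members summed to 12510 FPKM, against 18626 FPKM in SMA replicate 2 and 21230 and 20425 FPKM in the controls. Cox4i1, the main isoform of complex IV subunit 4, was listed at 0 in both P5 control polysomal libraries, whereas the SMA libraries of that stage read 771 and 887 FPKM. The table gives Cox4i1 the locus chr8:119910360-124345724 (GRCm38), which also takes in other genes. Cox4i1 was left out of every comparison with those 2 libraries, which leaves 89 members there. Cox8b was also listed at 0 in some libraries and no fold of it is printed for comparisons with those, although its fitted values stay in the counts of direction and the medians there.

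Markers of brain cells were present, and those of vessels differed between genotypes. All 8 neuronal, 7 astrocytic, 6 oligodendrocytic and 6 microglial markers averaged 1 FPKM or more, while 1 of 7 striated muscle markers did (Acta1, which the deposited table places in the same locus as Cox4i1 and lists at 0 in the same libraries). Of 8 endothelial markers, 7, 5, 7 and 7 were lower in SMA in P5 total, P5 polysomal, P7 total and P7 polysomal RNA at an unadjusted p under 0.05 in limma, and none was higher. For this and the lists below, the shares of all tested genes in the same order were 3.89%, 6.82%, 4.7% and 5.38% lower. Those higher were 4.36%, 5.65%, 4.84% and 5.35%. Of 9 pericyte markers tested, 4, 3, 6 and 6 were lower, with 1 higher in P5 total RNA, and of 4 vascular smooth muscle markers 0, 2, 3 and 4 were lower. Of 5 choroid plexus markers 4 were higher in each P7 fraction, and 1 in P5 polysomal RNA, with the sum led by Ttr at 409, 409 and 379.5 FPKM in P7 control total RNA against 823, 734 and 645 FPKM in SMA. Summed endothelial markers came to 87.4 and 80.03 FPKM in P5 control total RNA against 45.6 and 39.1 FPKM in SMA, with Cldn5 the most abundant, and summed pericyte markers to 83.5 and 85.3 FPKM against 58.98 and 55.6 FPKM. Of 8 neuronal markers 1 was higher in P5 total RNA (Map2, 0.37) and in P7 total RNA (Map2, 0.11), and oligodendrocytic markers gave 0 calls in these 4 comparisons. Summed neuronal markers were 2319 and 2138 FPKM in P5 control total RNA and 1999 and 2331 FPKM in SMA, Stmn2 being the most abundant, and Tubb3 was listed at 0 in both P5 control polysomal libraries. Among 7 astrocytic markers Aldoc (0.51 in P5 total RNA) and Slc1a2 (0.66) were higher and Fabp7 (-0.76) lower. In each P7 fraction Aldoc was higher and Fabp7 lower. Of 6 erythroid markers 1 was lower in P5 total and 1 in P7 polysomal RNA. Of 6 microglial markers 1 was lower in each P5 fraction and in P7 total RNA (P2ry12), and 2 were higher in each P7 fraction (C1qa and C1qb). The part of these cell types in the members' results was not tested, and in whole brain fewer cells of a type and less RNA per cell cannot be told apart.

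Respiratory chain mRNAs were abundant in these brains. The members' median was 181 FPKM, against 12.4 FPKM for the 13101 protein-coding genes tested, and 66 of the 819 protein-coding genes averaging over 100 FPKM were members. On this length-scaled level, with the Ndufa4 pair set aside, the highest member of each complex was Ndufa3 in complex I (594 FPKM), Sdhc in complex II (384 FPKM), Uqcr11 in complex III (635 FPKM), Cox6c in complex IV (930.1 FPKM) and Atp5b, the catalytic beta subunit, in complex V (1016 FPKM). Ndufa4, first described in complex I and now placed in complex IV, averaged 985 FPKM. Several core subunits were below the highest member of their complex: Ndufs1 averaged 65.1 FPKM, Ndufv1 128 FPKM, Sdha 133 FPKM, Uqcrc1 146 FPKM and the Rieske iron-sulfur protein Uqcrfs1 90.4 FPKM. Sdhb (118 FPKM) and Atp5a1 (394 FPKM) are core subunits too, as is Atp5b, the highest of all members. The assembly factors, which help to build complex I without being part of it, lay between 11.4 FPKM (Ndufaf1) and 42.5 FPKM (Ndufaf3).

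Isoform pairs were far apart. Isoforms known from muscle or testis averaged 9.32 FPKM (Cox7a1), 1.65 FPKM (Cox6a2), 12.8 FPKM (Cox6b2), 1.01 FPKM (Cox8b) and 1.71 FPKM (Cox7b2). Their widespread counterparts averaged 381 FPKM (Cox7a2), 436 FPKM (Cox6a1), 915 FPKM (Cox6b1), 523 FPKM (Cox8a) and 489 FPKM (Cox7b). The genes Atp5g1, Atp5g2 and Atp5g3, which encode the same mature subunit c of the ATP synthase, averaged 348, 145 and 464 FPKM. Many of these genes have processed pseudogenes, and how reads shared with them were assigned was not tested.

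At P5 the total RNA of most members was lower in SMA, but few passed the test singly. The log2 change, here and throughout the difference of log2(FPKM + 0.1), was negative for 84 of 90 members, with a median of -0.37 against 0.01 for all 15247 genes tested. By limma at an unadjusted p under 0.05, the threshold of the study, 4 members were lower and 0 higher, beside 3.89% and 4.36% of all tested genes. After Benjamini-Hochberg adjustment 0 members passed, beside 0.164% of all genes. The count depended on the fit: 1 limma model over all 20 libraries called 61 members (and 19.8% of all genes, against 8.25% in the comparison as given), genes above 0 in every library gave 9 (10.2%), and quantile normalization and a block for the replicate number (the replicate block) each gave 0 (9.1% and 4.77%). The medians were -0.52 for complex IV, -0.43 for complex I, -0.39 for complex III, -0.36 for complex V, -0.30 for the assembly factors and -0.13 for complex II. The genotypes did not overlap for 64 members, all lower in SMA, beside 22.5% of all tested genes.

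The 4 calls among 90 members were near the 3.89% of all tested genes called lower. They were fewer than the 10.2% of protein-coding genes of similar transcript length. The 4 members belong to complex I and its assembly, which hold 36 and 7 of the 90 members. Ndufb6, an accessory subunit of the membrane arm, read 198 and 182 FPKM in control against 119.6 and 151 FPKM in SMA (-0.50 ± 0.155 SE, limma adjusted p = 0.551). Ndufc2, of the same arm, read 207 and 188 FPKM against 134 and 157 FPKM (-0.44 ± 0.123 SE). The assembly factors were Ndufaf4, at 30.6 and 29.3 FPKM against 22.7 and 25.2 FPKM (-0.32 ± 0.084 SE), and Ndufaf6, at 26.7 and 25.2 FPKM against 19.7 and 22.3 FPKM (-0.30 ± 0.095 SE). In all 4 genes both SMA mice lay below both controls. With a correction for transcript length the change of Ndufaf6 was -0.08 and no longer called. Without SMA replicate 1 that of Ndufb6 was -0.33, and Ndufaf4 alone of the 4 remained called. Of core subunits, Sdha read 134 and 146 FPKM against 171 and 133 FPKM, Uqcrc1 149.98 and 144 FPKM against 147 and 150.2 FPKM and Ndufs1 62.7 and 56.8 FPKM against 62.6 and 55.5 FPKM, and each of these overlapped between genotypes.

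The size of the P5 difference in total RNA rested on 1 library. The members' median deviation from the control mean was -0.65 in SMA replicate 1 and -0.12 in SMA replicate 2, with 83 and 78 of 89 members below that mean. Without SMA replicate 1 the median change was -0.12 and 7 members were called, with 8.39% of all tested genes, and without SMA replicate 2 it was -0.65 with 72 called, as were 28.3% of all tested genes against 8.25% with every library, the lone SMA library then being taken to vary like the controls. Without control replicates 1 and 2 in turn 0 were called, beside 2.79% and 2.63% of all genes. Cox7c, a small complex IV subunit, shows the pattern: it read 609 and 517 FPKM in the controls against 229 and 444 FPKM in the SMA mice, with replicate 1 far below.

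**Figure D1:**
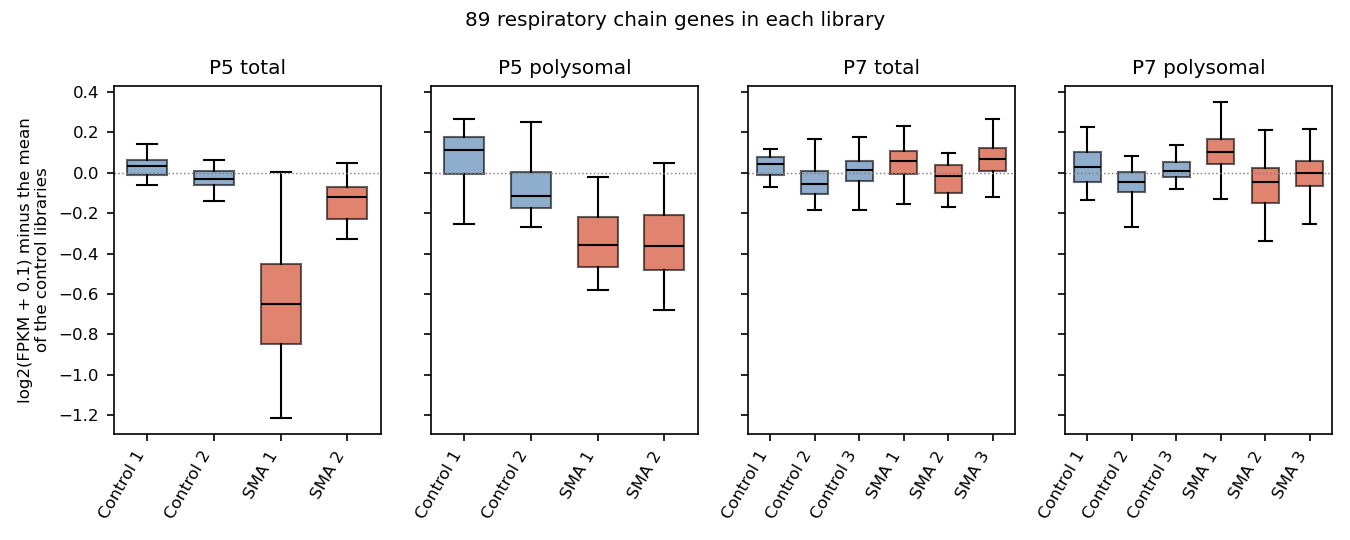
Each box shows 89 respiratory chain genes (all but Cox4i1) in 1 library, as log2(FPKM + 0.1) minus the mean of the control libraries of that stage and fraction (line, median; box, quartiles; whiskers, percentiles 5 and 95). At P5 the medians of the SMA libraries were -0.65 and -0.12 in total RNA and -0.36 and -0.36 in polysomal RNA, and at P7 they lay between -0.05 and 0.11.

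In P5 polysomal RNA both SMA mice were lower to a like degree. The change was negative for 85 of 89 members, with a median of -0.35 against -0.01 for all tested genes. By limma 28 members were lower and 0 higher at an unadjusted p under 0.05, beside 6.82% and 5.65% of all tested genes, and 0 passed adjustment, beside 0.649%. Complex I held 15 of these among 36 subunits, complex V 6 of 15, complex IV 3 of 14, complex III 2 of 8, complex II 1 of 4 and the assembly factors 1 of 7. The genotypes did not overlap for 72 members that were lower, beside 26.6% of all tested genes. Complex medians were -0.48 for complex IV, -0.35 for complex I, -0.35 for complex III, -0.35 for complex V and -0.32 for complex II.

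The largest changes among called members follow. Atp5e, the epsilon subunit of the ATP synthase, read 1037 and 806 FPKM in control against 562 and 510.5 FPKM in SMA (-0.77 ± 0.224 SE, limma adjusted p = 0.392). Atp5k, subunit e of the same enzyme, read 969.9 and 814 FPKM against 533 and 564 FPKM (-0.70 ± 0.194 SE). Uqcr11 of complex III read 754 and 609 FPKM against 418 and 456 FPKM (-0.64 ± 0.187 SE). In each of these both SMA mice were below both controls, and control replicate 1 was the highest. Ndufa1, a complex I subunit encoded on the X chromosome, read 482 and 422 FPKM against 312 and 281 FPKM (-0.61 ± 0.139 SE), and Cox7c 815 and 669.9 FPKM against 505 and 468 FPKM (-0.60 ± 0.187 SE). Each of these 5 calls was lost without either SMA library, and all but that of Ndufa1 without control replicate 1. Of the genes called in total RNA, Ndufb6 was the 1 also called here (-0.54 ± 0.137 SE). The count of called members was 16 and 53 without control replicates 1 and 2 (4 of the latter higher in SMA), and 5 and 2 without SMA replicates 1 and 2, while 8.25%, 19.8%, 7.76% and 5.19% of all tested genes were called, against 12.5% with every library, and the members' median stayed between -0.50 and -0.27.

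Transcript length moved with the P5 changes across the whole transcriptome, and these genes are short. Their longest annotated transcripts had a median of 1135 nt, against 3488 nt for protein-coding genes tested. With those genes split into 5 equal classes by length, in the shortest class (up to 2018 nt), the 2545 genes that were not members had median P5 changes of -0.23 in total and -0.23 in polysomal RNA, and members had -0.39 and -0.35. In the longest class the others had 0.20 and 0.18. Over the 1950 other protein-coding genes of 759 to 1883 nt, the range between the members' quartiles, the medians were -0.23 and -0.24. Of them 10.2% and 17.2% were called lower, and 50.7% and 54.5% were lower without overlap. In P5 total RNA their median log2 level was 3.939 and 3.913 in the controls, 3.593 in SMA replicate 1 and 3.812 in SMA replicate 2. The members' medians, without Cox4i1, were 7.455, 7.401, 6.903 and 7.29 in the same order. The comparison by length was not repeated without single libraries, so any excess of the members in total RNA is not separated from SMA replicate 1. The 12 members of 2019 to 3015 nt had medians of -0.18 and -0.31, beside -0.07 and -0.11 for other genes of that length. With length regressed out of each library, the members' medians were -0.21 in total and -0.21 in polysomal RNA, with 3 and 17 members called, beside 7.56% and 10.1% of all tested genes. RNA quality values were not used here, and the part of RNA quality in the length trend was not tested.

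**Figure D2:**
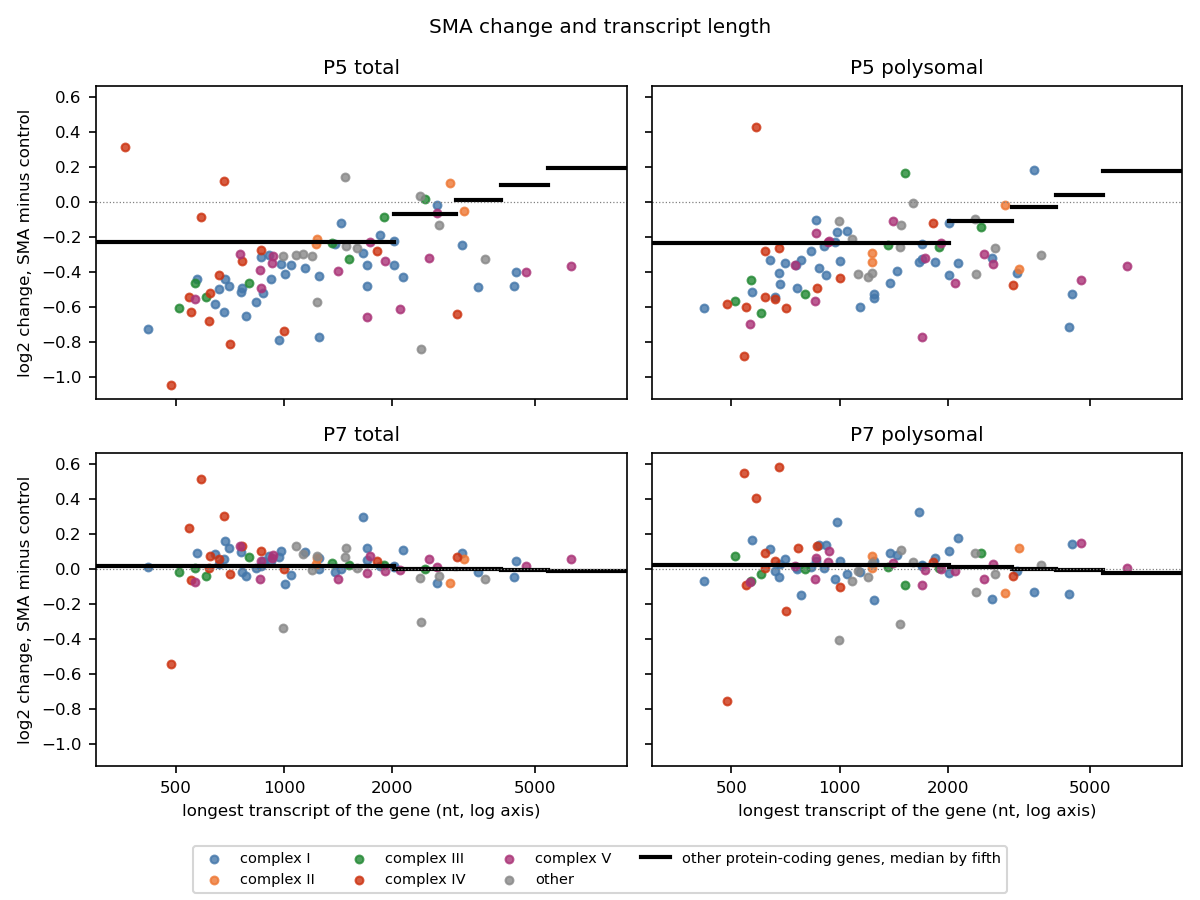
Each point is a member, with the length of its longest transcript (nt, log axis) against its log2 change in SMA in 1 stage and fraction, coloured by complex (grey: assembly factors, the Ndufa4 pair and further names), with genes listed at 0 left out, and black bars give medians of other protein-coding genes in 5 classes of length. At P5 the bars rise from -0.23 to 0.20 in total RNA with most members below them, and at P7 the bars lie near 0.

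Translation efficiency (TE) is the polysomal relative to the total level, and its change in SMA was tested as a genotype by fraction term in limma. At P5 the members' median change in TE was 0.02, with 0 members higher and 1 lower, beside 1.26% and 1.06% of all tested genes, and 0 after adjustment, beside 0.617%. The 1 member was Sdhc, a membrane anchor of complex II (-0.33 ± 0.12 SE, limma adjusted p = 1). Its total RNA read 197 and 209 FPKM in control against 202 and 190.4 FPKM in SMA, which overlap, and its polysomal RNA 302 and 319.9 FPKM against 233 and 244 FPKM, which do not. The call was lost when any 1 replicate of either genotype was left out in both fractions, with the replicate block and with length correction. The direction of the calls changed too, with 9 members higher and 1 lower without SMA replicate 2 (beside 6.24% of all genes in either direction) and 1 higher and 0 lower with 1 model over all libraries (beside 3.87%). The P5 median changed sign with the mice used, from -0.21 without SMA replicate 1 to 0.29 without SMA replicate 2. At P7 the median was -0.01 and 0 members were called, beside 1.09% higher and 0.977% lower of all genes and 0.0394% after adjustment.

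At P7 the members lay near control. In total RNA the median change was 0.03, with 3 members higher and 1 lower, beside 4.84% and 4.7% of all tested genes, and in polysomal RNA it was 0.01, with 3 higher and 2 lower, beside 5.35% and 5.38%. After adjustment in limma 0 members passed in either fraction, beside 0.111% and 0.0918% of all genes. In total RNA the higher ones were Ndufv1 (0.30 ± 0.104 SE), Ndufb9 (0.12 ± 0.04 SE) and Ndufs7 (0.10 ± 0.029 SE), all of complex I. Ndufv1, the subunit that binds NADH, read 107, 106 and 103 FPKM in control against 139.6, 111 and 141 FPKM in SMA. The lower one was the assembly factor Ndufaf2, at 20.1, 18.2 and 22.2 FPKM against 14.9, 17.5 and 16.7 FPKM (-0.30 ± 0.1 SE). Neither gene overlapped between genotypes. In polysomal RNA Ndufb8 of complex I was higher, at 574, 581 and 577 FPKM against 679, 614 and 672 FPKM (0.18 ± 0.07 SE), and Ndufs1, the largest complex I subunit, was lower, at 71.2, 70.5 and 71.3 FPKM against 59.3, 63.3 and 66.8 FPKM (-0.17 ± 0.049 SE). The other 3 were isoforms of complex IV, and 0 members were called the same way in both fractions. Scaling libraries to equal medians gave 2 higher and 3 lower in polysomal RNA, beside 10.6% of all genes in either direction. Quantile normalization or a length correction gave 1 higher and 1 lower in total RNA, beside 9.51% and 9.76%. Each of the 4 calls in total RNA was lost without 1 or more single libraries, as were those of Ndufb8 and Cox6a2 in polysomal RNA. Without control replicate 1 the calls in total RNA were 6 higher and 0 lower, beside 7.43% of all genes in either direction. Without control replicate 2 they were 0 and 1, beside 6.72%. Leaving out single libraries gave 1 to 6 calls in total RNA, beside 6.72% to 11.2% of all genes, and 3 to 12 in polysomal RNA, beside 7.25% to 13.5%.

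The SMA change differed between the stages by the test of that difference itself. In polysomal RNA it was more positive at P7 for 51 of 89 members and more negative for 0 at an unadjusted p under 0.05 in limma, beside 6.81% and 6.86% of all tested genes, and 19.8% of genes of similar length were more positive. In total RNA the counts were 24 and 0 of 90, beside 4.55% and 5.6%, with 13.1% of genes of similar length more positive. The median difference was 0.38 in polysomal and 0.44 in total RNA, against 0.26 and 0.25 for genes of similar length. After adjustment 0 members passed, beside 0.597% and 0.125% of all genes. Complex I held 26 of the polysomal calls among 36 subunits and complex V 9 among 15. Among called members the largest were Cox6a2 (0.84 ± 0.321 SE), Atp5e (0.68 ± 0.194 SE), Ndufa2 (0.68 ± 0.24 SE), Ndufb7 (0.67 ± 0.233 SE) and Uqcr10 (0.64 ± 0.224 SE) in polysomal RNA. In total RNA they were Ndufc1 (0.77 ± 0.314 SE), Ndufa1 (0.74 ± 0.29 SE), Cox6c (0.71 ± 0.29 SE), Ndufa4 (0.64 ± 0.252 SE) and Ndufc2 (0.60 ± 0.133 SE). Both fractions called 17 members. Without control P5 replicate 1 the polysomal difference of Ndufb7 was 0.39 and no longer called, and of these 5 genes Atp5e alone kept its call without any single library. Without SMA P5 replicate 1 the differences in total RNA were 0.33 (Ndufc1), 0.34 (Ndufa1), 0.32 (Cox6c) and 0.32 (Ndufa4), and without SMA P5 replicate 2 1.22, 1.14, 1.10 and 0.97. These 4 calls were lost without either P5 control, without most single P7 libraries and with the replicate block. The count in total RNA ran from 6 (without control P5 replicate 1) to 73 (without SMA P5 replicate 2), with 17 without the SMA P5 replicate 1 that stood apart. Of all tested genes 5.22%, 27.7% and 5.36% were then called, against 10.1% with every library. In polysomal RNA the count ran from 23 (without SMA P5 replicate 2, 8.6% of all genes) to 58 (without control P5 replicate 2, 24.4%), against 13.7%. With length corrected for, the median differences were 0.25 in total and 0.21 in polysomal RNA, with 13 and 24 members called, all more positive, beside 6.7% and 9.08% of all genes, and the calls of Ndufa1 in total and Cox6a2 in polysomal RNA were lost. Quantile normalization left 5 and 19 called, beside 10.2% and 13.9%.

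In control brain many members were richer in polysomal than in total RNA. At P7 34 of 90 were higher in polysomal RNA and 2 lower by limma at an unadjusted p under 0.05, beside 14.8% and 10.6% of all tested genes, and 13 passed adjustment, beside 7.12%. At P5 26 of 89 were higher and 1 lower, beside 12.3% and 13.6%, with 0 after adjustment, beside 1.32%. Of genes of similar length 19.7% were higher at P7 and 18.3% at P5. These fits were unpaired. With libraries of a number paired, 36 members were higher and 1 lower at P7, beside 29.1% of all tested genes in either direction. The members' medians were 0.37 at P5 and 0.18 at P7, and 16 members were called higher at both stages, among them Ndufs1, Ndufs5, Ndufb6, Ndufa9, Ndufc2, Sdha and Uqcrc1. At P7 the largest called difference was that of Ndufs5 of complex I, at 195, 183 and 169 FPKM in total and 243, 253 and 259.8 FPKM in polysomal RNA (0.47 ± 0.064 SE, limma adjusted p = 0.0213). Sdha, the flavoprotein of complex II, followed, at 95.01, 117 and 86.2 FPKM and 128, 132 and 141 FPKM (0.44 ± 0.122 SE), then Ndufs1 (0.39 ± 0.067 SE), Ndufc2 (0.37 ± 0.058 SE) and Uqcrc1 (0.36 ± 0.063 SE). At P5 they were Ndufb2 (0.81 ± 0.239 SE), Ndufa12 (0.73 ± 0.087 SE), Ndufa9 (0.69 ± 0.219 SE), Ndufb6 (0.68 ± 0.125 SE) and Ndufs1 (0.67 ± 0.221 SE). Without control polysomal P5 replicate 1 these differences were 0.52 for Ndufb2, 0.42 for Ndufa9 and 0.40 for Ndufs1, and all but Ndufa12 lost their call without either P5 control total library. Complex II had the highest median of the 5 complexes at both stages, 0.49 and 0.32. Without the P5 control total libraries of replicates 1 and 2 in turn, the P5 count of members was 3 and 5 of 89, beside 9.15% and 10.8% of all tested genes, against 25.9% with every library.

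Cox7a2l, known as a factor that joins complexes III and IV into supercomplexes, ran the other way. In control it read 228 and 216 FPKM in total and 174 and 131 FPKM in polysomal RNA at P5, and 221, 200.2 and 213 FPKM and 131, 116 and 125 FPKM at P7. The difference was -0.56 ± 0.173 SE at P5 (limma adjusted p = 0.182) and -0.77 ± 0.062 SE at P7 (limma adjusted p = 0.00535). The P5 difference was -0.35 without polysomal replicate 2 and was not called without either total library. In SMA it read 142 and 228 FPKM and 115 and 112 FPKM at P5, and 226, 208 and 241 FPKM and 118, 124 and 126 FPKM at P7. Every polysomal value of a stage and genotype was below every total one. Ndufaf4 was also lower in polysomal RNA at P7 (-0.18 ± 0.053 SE), a call at the unadjusted threshold that was lost when libraries of a number were paired.

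**Figure D3:**
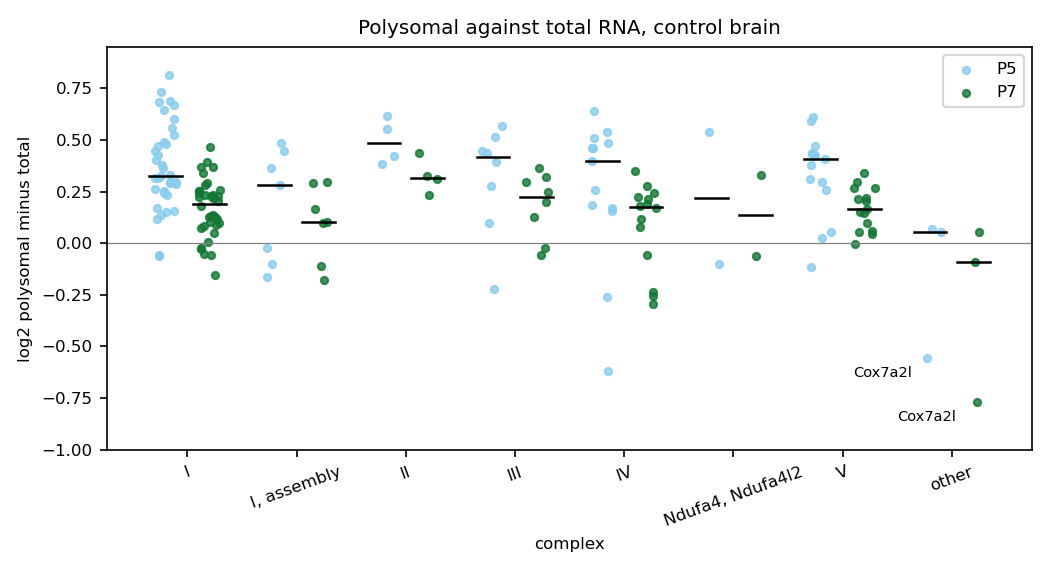
Each point is a member in control brain, as the log2 polysomal minus total difference (y axis) by complex (x axis) at P5 and P7, with lines for medians and with genes listed at 0 left out. Most points lie above 0, and Cox7a2l lies at -0.56 and -0.77.

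From P5 to P7 these genes changed in both directions in control brain. In total RNA 37 members were higher and 10 lower at P7 by limma, beside 20.1% and 20.1% of all tested genes and 16.7% and 24.1% of genes of similar length, and 31 passed adjustment, beside 21.2%. In polysomal RNA 14 of 89 were higher and 18 lower, beside 20.7% and 21.4% of all genes and 15% and 29.9% of those of similar length, and 13 passed, beside 20.6%. Quantile normalization changed the split in total RNA to 30 higher and 18 lower, beside 40.3% of all genes in either direction. The medians were 0.17 and -0.01. Both fractions called 11 members higher and 10 lower. In complex IV 6 of 15 subunits were higher and 0 lower in total RNA. Stage and any batch of library making or sequencing cannot be told apart.

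The largest rise was that of Uqcrq, a small complex III subunit. Its total RNA went from 110.2 and 85.9 FPKM to 319, 321 and 264 FPKM (1.62 ± 0.154 SE, limma adjusted p = 0.0131) and its polysomal RNA from 64.2 and 108 FPKM to 356, 328 and 389 FPKM (2.09 ± 0.252 SE, limma adjusted p = 0.0206). In SMA total RNA it read 66.2 and 91.3 FPKM at P5 and 338, 272 and 308 FPKM at P7. Sdhc rose from 197 and 209 FPKM to 406, 394 and 439 FPKM in total RNA (1.02 ± 0.066 SE, limma adjusted p = 0.00847). Among called members the next in total RNA were Cox8a (0.95 ± 0.124 SE), Cox6a1 (0.77 ± 0.133 SE) and Atp5k (0.72 ± 0.1 SE), and in polysomal RNA Cox6b2 (1.76 ± 0.501 SE), Cox6a2 (1.13 ± 0.223 SE), Sdhc (0.73 ± 0.183 SE) and Atp5d (0.72 ± 0.114 SE). In each group compared, the P7 values of these genes lay above the P5 values. The polysomal rise of Cox6b2 was 0.96 without P5 control replicate 1 and 2.55 without replicate 2, and its call was lost without any 1 of the P7 controls and with the replicate block. That of Sdhc was not called without P5 control replicate 1 or with the block.

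Among members that fell, Ndufb7 of complex I went from 126 and 124 FPKM to 82.98, 80.1 and 87.6 FPKM in total RNA (-0.58 ± 0.048 SE, limma adjusted p = 0.011). Sdha (-0.50 ± 0.149 SE), Ndufaf2 (-0.43 ± 0.096 SE), Uqcrc1 (-0.43 ± 0.051 SE) and Ndufv2 (-0.31 ± 0.064 SE) followed. In polysomal RNA the largest called falls were those of Ndufb7 (-0.91 ± 0.211 SE), Ndufa9 (-0.63 ± 0.181 SE), Ndufaf2 (-0.62 ± 0.075 SE), Ndufaf5 (-0.58 ± 0.156 SE) and Uqcrc1 (-0.58 ± 0.107 SE). Without P5 control polysomal replicate 1 the falls of Ndufa9 and Ndufaf5 were -0.36 and -0.34, and without P7 replicate 3 neither was called. The total RNA call of Sdha was lost without either P5 control or P7 replicate 1, and that of Ndufaf2 without P5 replicate 2. Subunits of the same complex thus moved apart, Sdhc and Sdha in complex II and Uqcrq and Uqcrc1 in complex III.

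**Figure D4:**
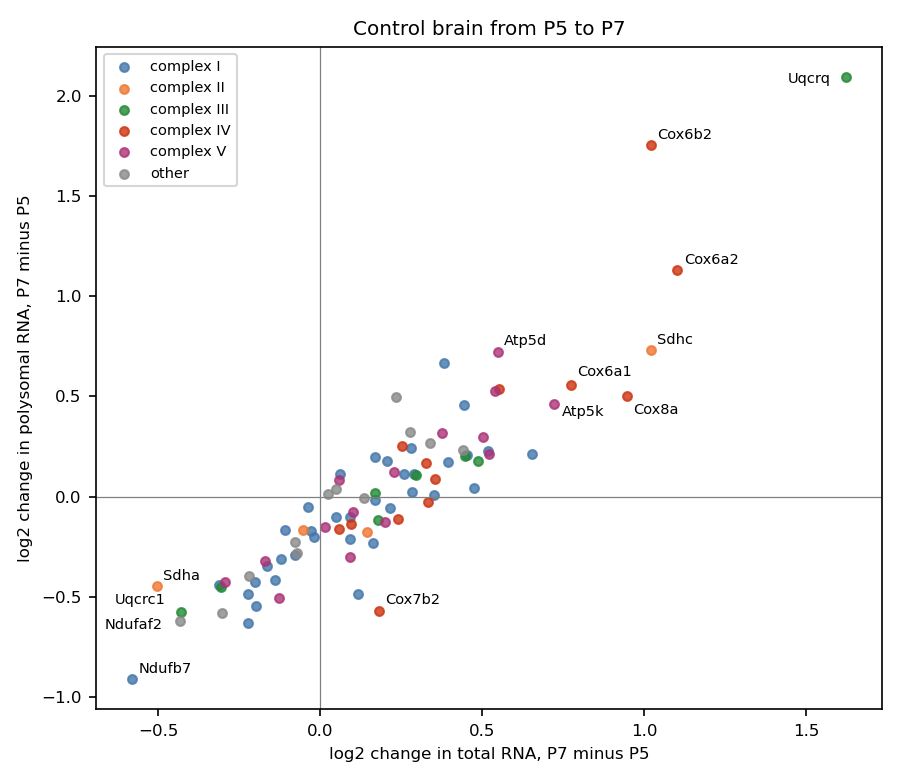
Each point is a member, with its log2 change from P5 to P7 in total RNA (x axis) against that in polysomal RNA (y axis) of control brain, coloured by complex (grey: assembly factors, the Ndufa4 pair and further names), without Cox4i1 and Cox8b. Uqcrq stands at 1.62 and 2.09, and Ndufb7 at -0.58 and -0.91.

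Low isoforms of complex IV varied by mouse and genotype. Cox7a1, the isoform known from muscle, read 11.7, 12.3 and 14.8 FPKM in control against 8.93, 7.43 and 6.61 FPKM in SMA in P7 polysomal RNA (-0.75 ± 0.148 SE, limma adjusted p = 0.243). In P7 total RNA it read 9.63, 9.32 and 16.6 FPKM against 8.26, 6.76 and 8.62 FPKM, and in P5 polysomal RNA 10.2 and 11.4 FPKM against 6.50 and 7.91 FPKM. In each of these the SMA mice lay below all controls. Without control replicate 3 its P7 polysomal change was -0.65, still called at the unadjusted threshold in limma. Rgs5, the most abundant pericyte marker, read 32.1, 32.3 and 34.1 FPKM in control against 12.99, 15.8 and 13.1 FPKM in SMA in P7 total RNA (-1.23 ± 0.088 SE, limma adjusted p = 0.0258). Summed pericyte markers came to 79.9, 77.8 and 86.4 FPKM against 46.8, 53.6 and 50.8 FPKM there, and summed endothelial markers to 52.3, 60.6 and 69.1 FPKM against 34.1, 38.1 and 32.8 FPKM. Their part in the Cox7a1 result was not tested.

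Cox6b2, known as the testis isoform of subunit 6b, read 14.7, 14.7 and 15.2 FPKM in control against 19.4, 22.1 and 17.8 FPKM in SMA in P7 polysomal RNA (0.41 ± 0.086 SE, limma adjusted p = 0.26). Its P7 total values, 9.05, 12.5 and 22.7 FPKM against 17.7, 22.1 and 19.4 FPKM, were not called. Cox6a2, the heart and muscle isoform of subunit 6a, read 2.22, 1.41 and 1.49 FPKM against 2.29, 2.93 and 2.48 FPKM in P7 polysomal RNA (0.58 ± 0.201 SE). Cox8b, a muscle and brown fat isoform, read 0, 0.570 and 6.50 FPKM in P7 control total and 0.320, 0 and 7.23 FPKM in P7 control polysomal RNA, so that control replicate 3 stood out in both. Ucp1, the uncoupling protein of brown fat, was looked up after this was seen, and read 0.0300, 0.120 and 7.39 FPKM and 0.0700, 0 and 7.23 FPKM in the same libraries. Cox7b2 varied within both genotypes at P7, at 0.390, 2.00 and 3.43 FPKM and 0.470, 1.99 and 4.90 FPKM in total RNA. Ndufa4l2 read 2.17, 1.93 and 2.15 FPKM and 1.51, 2.07 and 1.38 FPKM there.

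**Figure D5:**
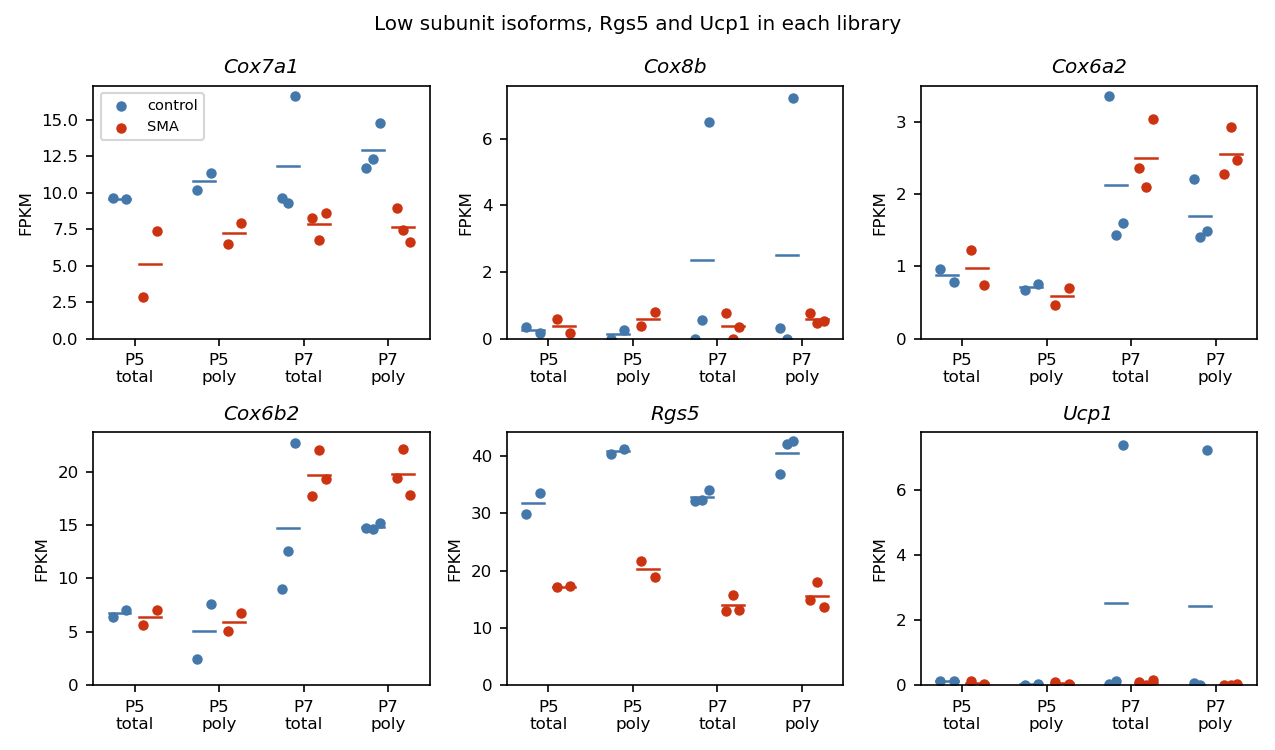
FPKM (linear axis from 0) of Cox7a1, Cox8b, Cox6a2, Cox6b2, the pericyte marker Rgs5 and the brown fat gene Ucp1 in each library (points) by stage, fraction and genotype, with lines for means. Cox8b and Ucp1 stand out in P7 control replicate 3 in both fractions.

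Core subunits encoded by mitochondrial DNA were called in the opposite direction to the nuclear ones in P5 polysomal RNA. Of their 13 mRNAs mt-Co1 was listed at 0 in all 4 P5 polysomal libraries, and of the 12 compared 4 were higher in SMA and 0 lower, beside 5.65% and 6.82% of all tested genes. The 4 belong to complex I: mt-Nd4 (0.72 ± 0.225 SE), mt-Nd4l (0.66 ± 0.135 SE), mt-Nd1 (0.60 ± 0.103 SE) and mt-Nd3 (0.51 ± 0.129 SE). mt-Nd1 read 141 and 160.4 FPKM in control against 231 and 224 FPKM in SMA, so both SMA mice were above both controls. In P5 total RNA all 13 changes were negative, with a median of -0.60, and 1 was called lower (mt-Co2, -0.92 ± 0.183 SE), beside 3.89% of all tested genes. With single libraries left out this median ran from -0.79 (without control replicate 2) to -0.35 (without control replicate 1). Summed FPKM of the 13 in P5 total RNA was 18150 and 14100 in the controls against 9391 and 14540 in the SMA mice. The sum in SMA replicate 2, most of it from mt-Atp8 and mt-Co1, thus lay between the controls. Singly, 10 of the 13 genes were lower in SMA without overlap, beside 22.5% of all tested genes. In SMA at P5, 7 of the 12 had a higher polysomal relative to total level by the test of TE, beside 1.26% of all tested genes. The largest were mt-Nd4l (1.41 ± 0.29 SE), mt-Nd4 (1.34 ± 0.405 SE) and mt-Cytb (1.06 ± 0.37 SE). These mRNAs are not read by cytosolic ribosomes, so for them this ratio does not measure translation. Without SMA replicate 1, an alternative added after the values were seen, 12 of 13 changes in total RNA were negative with a median of -0.37. Leaving out a replicate leaves 1 library in a group, so no counts of calls are given for these 12 genes. Their median change in TE then ran from 0.78 (without SMA replicate 1) to 1.35 (without control replicate 2), against 1.035 with every library. In polysomal RNA their median ran from 0.35 to 0.63, against 0.50. Which calls held varied with the library left out. At P7, mt-Atp6, mt-Atp8, mt-Co1 and mt-Co3 were listed at 0 in all 6 libraries of total RNA, where 0 of the other 9 were called, and in polysomal RNA 0 of 13 were. In P5 control polysomal RNA the sum of the 13 was 1623 and 2072 FPKM. Stages are not compared for the 4 genes listed at 0.

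Other nuclear genes of the organelle give the setting. Of 77 mitochondrial ribosomal protein genes, 7 were lower in SMA in P5 total and 21 in P5 polysomal RNA, with 0 higher, beside 3.89% and 6.82% of all tested genes and 10.2% and 17.2% of protein-coding genes of the members' length range. Their medians were -0.32 and -0.28. The largest called changes in polysomal RNA were in Mrps21 (-0.76 ± 0.174 SE), Mrpl52 (-0.62 ± 0.197 SE) and Mrps14 (-0.58 ± 0.114 SE). From P5 to P7 in control total RNA, 28 were lower and 6 higher, beside 20.1% and 20.1% of all tested genes. Of 39 assembly factors outside the naming rule, 5 and 12 were lower in P5 total and polysomal RNA and 0 higher, led by Coa3, a complex IV assembly factor (-0.61 ± 0.187 SE and -0.99 ± 0.256 SE). Of 7 further subunits and electron carriers, cytochrome c (Cycs, -0.60 ± 0.095 SE and -0.55 ± 0.176 SE) and the electron transfer flavoprotein subunit Etfb (-0.33 ± 0.104 SE and -0.37 ± 0.116 SE) were lower in both fractions at P5. At P7 these lists had between 0 and 4 calls in a direction. Of all tested genes 4.84% were higher and 4.7% lower in P7 total RNA, and 5.35% and 5.38% in P7 polysomal RNA.

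Genes that feed or regulate the chain were counted too. Of 16 genes of the tricarboxylic acid cycle and pyruvate dehydrogenase, 0 were called in P5 total RNA and 1 in polysomal RNA (Pdhb, -0.30 ± 0.091 SE), lower in SMA, beside 3.89% and 6.82% of all tested genes. In control total RNA 8 of them rose and 1 fell from P5 to P7, beside 20.1% and 20.1% of all tested genes, among them Mdh2 (0.39 ± 0.055 SE), Fh1 (0.39 ± 0.038 SE) and Suclg2 (-0.36 ± 0.072 SE). Of 12 regulators of mitochondrial biogenesis, 3 rose and 2 fell over the same days, beside 20.1% and 20.1% of all tested genes. Among them the coactivators Ppargc1a (1.01 ± 0.127 SE) and Ppargc1b (0.97 ± 0.126 SE) rose and Nrf1 (-0.74 ± 0.107 SE) fell. In SMA at P5 2 regulators were higher in total RNA and 1 lower (Tfb2m, -0.37 ± 0.12 SE), beside 4.36% and 3.89% of all tested genes, and 1 was higher in polysomal RNA, beside 5.65%. Ppargc1b was higher in total (0.86 ± 0.214 SE) and polysomal RNA (0.89 ± 0.201 SE), against 0 regulators called at P7. In the comparisons of SMA with control, 0 genes of these mitochondrial lists passed adjustment in limma.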

How the data were processed

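RNA from 20 libraries was prepared with a stranded total RNA kit. The authors aligned reads with TopHat2 2.0.14 to GRCm38.p4 and deposited 1 FPKM value per gene and library from Cufflinks 2.2.1. Depth cannot be read from these values, so no counting interval is given, and a 0 can be a failed estimate. Nothing states that libraries with different numbers came from different litters, and p-values measure the spread between libraries only. Cufflinks can merge neighbouring loci, as for Cox4i1.

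log2(FPKM + 0.1) of 15247 genes averaging 1 FPKM or more was fitted in limma 3.58.1 under R 4.3.3 (empirical Bayes with trend), each comparison on its own groups without covariates. The script was tested on simulated data. CuffDiff and Xtail need reads and were not run. Transcript lengths came from Gencode M21. Named were up to 5 calls per direction, isoform families, core subunits, Smn1, and of each list up to 3 calls and the most abundant marker. 1 gene of this rule is not reported here. Alternatives changed the pseudocount, filter, scaling, length correction, model, block and libraries. Members, lists, motifs and tests were chosen with earlier results of these data known.

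At P7 total and polysomal libraries sharing a number deviated together in each genotype (r from 0.162 to 0.449 over 14335 genes). At P5 r was 0.0952 in control and 0.215 in SMA. At both stages each total library matched the polysomal library of its own number best. No label pairs them, and all main comparisons, at P7 too, were fitted without pairing. The block for the replicate number was run as an alternative.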

Additional observations from a re-analysis of the deposited data

Results flagged for a closer look

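The SMA change differed between P5 and P7, by the test of the difference itself, for 24 members in total RNA and 51 in polysomal RNA at an unadjusted p under 0.05 in limma, all more positive at P7, beside 4.55% and 6.81% of all tested genes and 13.1% and 19.8% of protein-coding genes of similar transcript length. After adjustment over all genes 0 members passed. Groups of 2 and 3 libraries are too small for a test of outlying samples.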

How the results depend on the processing

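No called change of a named member reversed under any alternative, the direction of other members' calls not being followed, but the P5 median change in TE, which was not called, ran from -0.21 to 0.29 as SMA mice were left out. Of 1101 values of named members under alternatives, 889 kept their side of the threshold and 212 no longer passed it. Requiring an adjusted p under 0.05 left 0 members in all SMA comparisons, in both tests of TE, in both stage differences and in P5 polysomal against total RNA, but 31 and 13 from P5 to P7 in total and polysomal RNA and 13 in P7 polysomal against total RNA. In what follows, the share of all tested genes called under the same setting stands in parentheses after each count of members. Quantile normalization gave 0 (9.1%) and 12 (13.3%) for SMA at P5 in total and polysomal RNA, 2 (9.51%) and 8 (10.9%) at P7, 0 (2.84%) for P5 TE, 5 (10.2%) and 19 (13.9%) for the stage difference, and 46 (26.7%) and 56 (24%) for polysomal against total RNA at P5 and P7. 1 model over all libraries gave 61 (19.8%) and 52 (25%) for SMA at P5, against 8.25% and 12.5% of all genes in the comparisons as given, 0 (9.06%) and 2 (9.98%) at P7, 43 (11.8%) for the stage difference in total RNA and 50 (36.7%) for P5 polysomal against total RNA. Length correction gave 17 (10.1%) for P5 polysomal and 2 (9.76%) for P7 total RNA, 0 (2.45%) for P5 TE, and 13 (6.7%) and 24 (9.08%) for the stage difference. With genes above 0 in every library the counts were 9 (10.2%) for P5 total RNA and 0 (1.85%) for P5 TE, with equal medians 0 (2.24%) for P5 TE, and with no filter 18 (10.3%) for P5 polysomal RNA. Why these counts differ was not tested.

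Leaving out 1 library at a time, or 1 number in both fractions for TE, gave 0 to 72 (2.63% to 28.3%) and 2 to 53 (5.19% to 19.8%) calls for SMA at P5 (total and polysomal), 1 to 6 (6.72% to 11.2%) and 3 to 12 (7.25% to 13.5%) at P7, 1 to 10 (1.97% to 6.24%) and 0 to 4 (1.81% to 4.74%) for TE at P5 and P7, 34 to 51 (27% to 40.5%) and 18 to 40 (28.6% to 40.9%) from P5 to P7, 6 to 73 (5.22% to 27.7%) and 23 to 58 (7.87% to 24.4%) for the stage difference, and 3 to 54 (9.15% to 36.7%) and 30 to 39 (19.4% to 23.2%) for polysomal against total RNA at P5 and P7, the parentheses here giving the range of the share of all genes. With the replicate number as a block, P7 polysomal against total RNA had 37 (29.1%) calls and P7 TE 0 (4.32%), and of the named calls in that pairing Ndufaf4 was lost. Elsewhere libraries were taken to share only a number. Control and SMA libraries of 1 number had r from -0.144 to 0.103. The P5 total and polysomal libraries of 1 number had r of 0.0952 in control and 0.215 in SMA, and whether they are pairs is not known. The block then gave 0 (4.77%) and 21 (13.2%) for SMA at P5, 2 (8.6%) and 4 (9.37%) at P7, 0 (2.77%) for P5 TE, 44 (35.1%) and 15 (32.9%) from P5 to P7, 9 (8.92%) and 44 (15%) for the stage difference and 21 (20.5%) for P5 polysomal against total RNA, and of the named calls of the P5 fraction comparisons it removed Sdhc (TE) and Ndufa9 (polysomal against total). Of the named SMA calls at P5 it removed Ndufb6, Ndufc2, Ndufaf4 and Ndufaf6 in total RNA and Atp5k, Uqcr11 and Cox7c in polysomal RNA. At P7 it removed Ndufv1, Ndufb9 and Ndufaf2 in total RNA and Ndufb8 and Cox6a2 in polysomal RNA. The log2 changes of these genes were the same with the block. Depth is unknown from FPKM, and the 2 libraries in each P5 group limit the precision there.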
